A study of Danio rerio with 6 samples.

Results

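Whole-brain RNA from wild-type (WT) adult zebrafish was described on its own, as a catalogue of which genes the brain transcribed and how far 3 libraries of the same kind differed. The series held 6 libraries, 3 from fish homozygous for the C246X allele of chrna3, a nicotinic acetylcholine receptor subunit gene mutated with CRISPR/Cas9, and 3 from WT fish. The description rests on the 3 libraries labelled WT (replicates 1, 2 and 3), and the mutant libraries were left out of every value. All 23678 genes in the deposited matrix were ranked by their mean over these 3 libraries. The labels gave whole brain as the tissue, adulthood as the stage and polyadenylated RNA read as 150 bp pairs as the assay. They did not give sex, exact age, strain or the hour of sampling, nor whether a library came from 1 fish or a pool, so the spread between the libraries may be partly technical.

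The vertebrate brain mixes neurons, which signal through glutamate, GABA, glycine, acetylcholine, monoamines and peptides, with glia that recycle transmitter, wrap axons and engulf debris. In adult zebrafish, radial glia persist through much of the brain and take on roles that astrocytes fill in mammals. Along the head-to-tail axis, regional identity is kept by transcription factors, with hox genes active from the hindbrain into the spinal cord and with a nested order in which genes of higher paralog number start further back.

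The values were estimated read counts per gene divided by a factor per library close to 1, so that a value of 1 stood for about 1 read. Library totals were 26545054, 25876369 and 25655952 in WT replicates 1, 2 and 3, and runs of 3 values below keep that order. Values were not divided by transcript length: a long transcript yields more reads than a short one at the same number of molecules, and an order of genes by value is an order by reads. Symbols come from a naming table that often gives the human form in capitals, so copies of a duplicated gene can share a symbol and are told apart by their Ensembl identifier. In bulk tissue, fewer cells of a type and less RNA per cell cannot be told apart. The libraries did not all look alike. WT replicate 2 stood apart in hox genes, which were low, and in photoreceptor and pineal genes, which were high. WT replicate 3 was high in some skeletal muscle genes, and WT replicate 1 in GAD1 and some globins. Other globins were low in WT replicate 2. Results that touch these genes are given by library.

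Reads were concentrated in a small part of the genome. The gene of the highest mean, MT-CO1, took 1.68% of all reads, and 998 genes were enough to reach 50% of the total, out of 22629, 22649 and 22770 genes with a value above 0. The 10 genes with the highest mean held 8.11%, 6.53% and 7.45% of the total, and the first 1000 held 51.1%, 49.2% and 49.8%. There were 336 genes with a mean of at least 10000, which together held 33.3% of the reads, and 4073 genes with a mean below 10, of which 398 were listed at 0 in all 3 libraries. A value of 0 leaves room for up to 3 reads in a library.

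Among the 25 genes with the highest mean, 8 had the symbol of a gene encoded by the mitochondrial genome. MT-CO1, a catalytic subunit of cytochrome oxidase, had 516935, 385495 and 409068. The other cytochrome oxidase subunits followed, with 237873, 182250 and 211625 for MT-CO3 and 232416, 169568 and 199168 for MT-CO2. WT replicate 1 was highest in each. MT-CYB, MT-ATP6, MT-ND4, MT-ND1 and MT-ND2, subunits of the respiratory chain and ATP synthase, averaged 158213 ± 13023, 107176 ± 17154, 76442 ± 10743, 73188 ± 5327 and 61779.8 ± 9008 (SD, n = 3). All 13 mitochondrially encoded genes with a symbol in the list were lowest in WT replicate 2. So were 33.5% of all genes with a mean of at least 10. Of the 13, 12 were highest in WT replicate 1, against 34.2%. Together they made up 6.06%, 4.76% and 5.35% of the libraries.

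The nuclear genes at the head of the list covered secreted, glial and neuronal products. The highest was epd, which encodes ependymin, a glycoprotein secreted into the extracellular and cerebrospinal fluid of fish brain, with 292124, 211161 and 288277. It was lower in WT replicate 2 than in both others. Myelin followed, with 222437, 180241 and 196111 for mbpa, encoding myelin basic protein. SNAP25 (ENSDARG00000020609), a SNARE protein of vesicle fusion, had 113780, 93500.1 and 100132, and malat1, a nuclear noncoding RNA, had 159460, 150607 and 157287. Both mbpa and SNAP25 were highest in WT replicate 1 and lowest in WT replicate 2, whereas malat1 varied by only 2.96% (coefficient of variation, SD over mean, n = 3).

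Metabolic and structural genes completed this group. ALDOC (ENSDARG00000019702), an aldolase of glycolysis that is high in astroglia, averaged 74728 ± 9375. SLC1A2 (ENSDARG00000102453), the glutamate transporter of astroglia, had 67126, 67918 and 63058, and GPM6A (ENSDARG00000055455), a neuronal membrane glycoprotein, had 68400.1, 66675 and 68934. SLC1A2 and GPM6A were close in all libraries. CKB (ENSDARG00000043257), a creatine kinase, averaged 64921 ± 2327, HSP90AB1, a cytosolic chaperone, 70393 ± 1417, actb2, a cytoplasmic actin, 82504 ± 662, eef1a1l1, a translation elongation factor, 57423 ± 3173, and GAPDHS, named as a glycolytic dehydrogenase, 54778 ± 5088 (SD, n = 3). A pair of entries without a symbol, ENSDARG00000082753 and ENSDARG00000080337, averaged 72858 ± 5421 and 53101 ± 2275. What they encode, and whether in the nuclear or the mitochondrial genome, was not determined.

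The head of the list was stable. Of its 25 genes, 22 were within the first 25 of every library and all 25 were within the first 40. The gene that moved furthest was GAD1 (ENSDARG00000027419), which encodes a glutamate decarboxylase that makes GABA: its values were 92283, 45552 and 48364, which placed it at rank 10 in WT replicate 1 and rank 32 in both others. CPE, carboxypeptidase E, which trims peptide precursors, ran the other way with 50243, 72676 and 49177, at rank 31, 11 and 29. WT replicate 1 was the high library for GAD1, and WT replicate 2 for CPE.

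**Figure D1:**
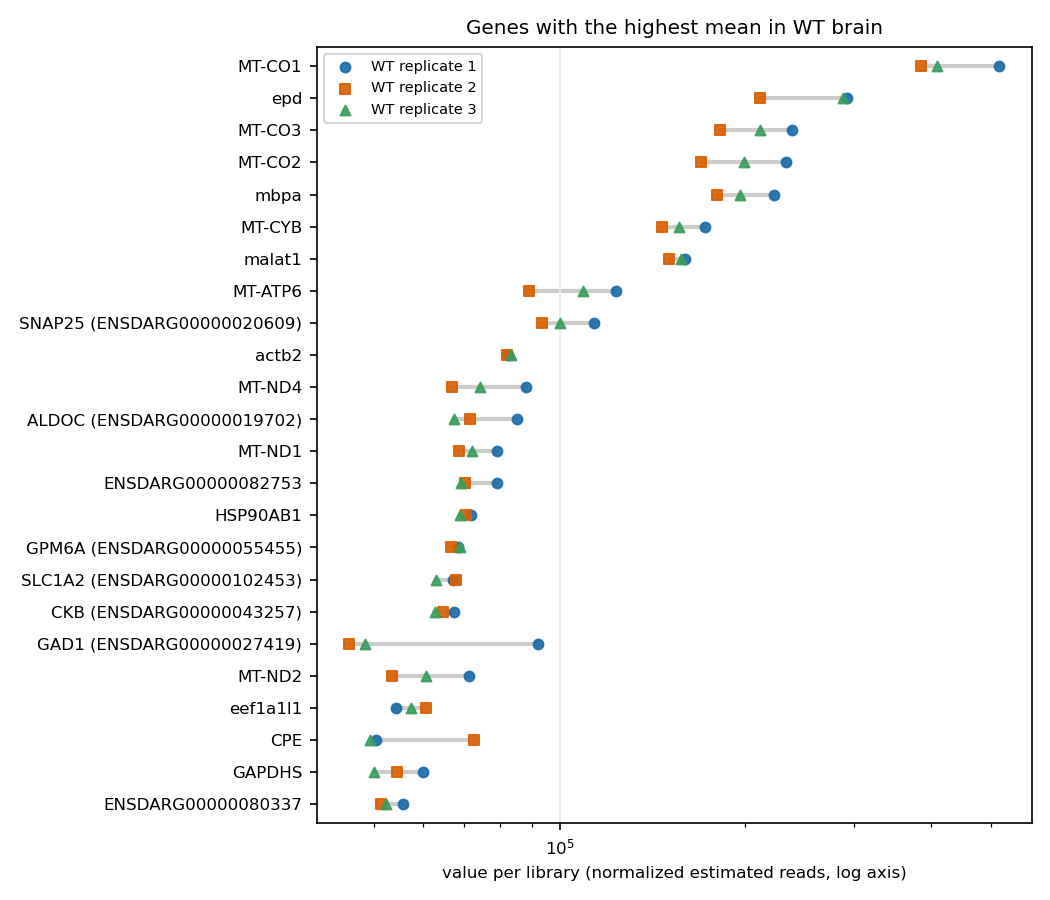
Values of 24 of the 25 genes with the highest WT mean, on a log axis in normalized estimated reads; each symbol is 1 WT library and the grey bar spans the 3. GAD1 (92283, 45552 and 48364) and CPE (50243, 72676 and 49177) have the widest bars, and actb2 and malat1 are among those with narrow ones.

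Outside the first 25, housekeeping families took small and even shares. The 92 cytosolic ribosomal protein genes together held 1.89%, 1.98% and 2.04% of the reads. The 6 calmodulin genes, which encode the main calcium sensor of neurons, held 0.650%, 0.613% and 0.624%, led by calm3b with 48155 ± 1093 (SD, n = 3). The 19 tubulin genes held 0.674%, 0.689% and 0.706%.

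The list of neuron markers had the highest summed level of the cell type lists, but also the most genes. It held 46, against 39 for radial glia and astroglia and 23 for oligodendrocytes, so the sums do not rank cell types. All 46 pan-neuronal genes were detected, 42 had a mean of at least 1000, and 11 were within the first 100 genes. Their summed level was 828679.6, 758576 and 779304, a ratio of highest to lowest library of 1.09. Beside SNAP25, members with high values were atp1a3a, the neuronal sodium pump subunit, and STMN1 (ENSDARG00000033655), a tubulin-binding stathmin, with means of 50512 ± 372 and 47692 ± 1699 (SD, n = 3). None of the 45 members with a mean of at least 10 had a coefficient of variation of 50% or more. Of all 19605 genes at that level 4.97% did, but of those with a mean of at least 1000, where 42 of the 46 lie, only 0.433%, so that the count is near the share of genes at a like level. The widest ratios were in SNCG (ENSDARG00000034423), a synuclein, with 4788, 1912 and 3081, and NEFL, the light neurofilament chain of large axons, with 5178, 2347 and 3728. A related neurofilament gene, nefmb, had 6974, 3177 and 5885. All 3 were lowest in WT replicate 2.

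Glutamatergic genes were the steadiest of the transmitter classes, with sums of 109616, 104236 and 103593 and a ratio of 1.06. GRIN1 (ENSDARG00000027828) and GRIN1 (ENSDARG00000025728), copies of the obligatory NMDA receptor subunit, averaged 28598 ± 2599 and 9579 ± 10.2, and GRIA2 (ENSDARG00000052765) and GRIA2 (ENSDARG00000070173), AMPA receptor subunits, 17449 ± 589 and 8077 ± 367 (SD, n = 3). The vesicular glutamate transporter SLC17A6 (ENSDARG00000041150), used by many neurons below the telencephalon, had 7438, 5551 and 6899.5. Another transporter gene of the family, SLC17A7 (ENSDARG00000016480), had 3058, 4705 and 3657. SLC17A6 was lowest and SLC17A7 highest in WT replicate 2. GRIN2B (ENSDARG00000079348), an NMDA receptor subunit, had 533, 729.5 and 610.1.

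Genes of inhibitory transmission summed to 194730.1, 136301 and 137858, a ratio of 1.43, and GAD1 (ENSDARG00000027419) accounted for most of the difference: it alone held 92283, 45552 and 48364 of these sums. The other synthetic enzyme, GAD2, had 27907, 23313 and 22912. SLC32A1, which loads GABA and glycine into vesicles, had 13617, 11886 and 11625. Both were highest in WT replicate 1, by far less than GAD1. SLC6A5, the glycine transporter of glycinergic neurons in hindbrain and spinal cord, had 2844, 1141 and 1726, and GABRB2 (ENSDARG00000100032), a GABA receptor subunit copy, had 66.7, 129 and 96.4. SLC6A5 was lowest and the receptor copy highest in WT replicate 2.

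Genes of acetylcholine and monoamine neurons were at lower values, with 3 of 20 at a mean of at least 1000 and sums of 19099, 16293 and 17115. ACHE, which breaks down acetylcholine, led with 9693 ± 1052 (SD, n = 3), ahead of HDC, the histamine-making enzyme, with 1131, 1665 and 1387. CHAT, which makes acetylcholine, had 1488, 835 and 1204, and SLC5A7 (ENSDARG00000074860), the choline transporter that supplies it, 1125, 538 and 781. Both cholinergic genes were lowest in WT replicate 2. DBH, which makes noradrenaline, had 195, 45.9 and 133, and TPH1 (ENSDARG00000036082), a tryptophan hydroxylase of serotonin synthesis, 16.9, 11.1 and 6.36. Of the 20, only DBH had a coefficient of variation of at least 50%. Over all genes with a mean of at least 10, 4.97% did. TH, the rate-limiting enzyme of catecholamine synthesis, had 248, 188 and 209.7, and TPH2, its counterpart for serotonin, 589, 880.3 and 675.

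Radial glial and astroglial genes were also abundant, with 28 of 39 at a mean of at least 1000, 7 within the first 100 and sums of 438028, 424666 and 379589. After ALDOC and SLC1A2 came GLUL (ENSDARG00000099776), glutamine synthetase, with 35365, 36208 and 36114. GJA1, the connexin of astroglial gap junctions, followed with 40822, 39070.2 and 27576. Glutamine synthetase was almost equal in the libraries, and the connexin was lowest in WT replicate 3. FABP7 (ENSDARG00000007697), which binds fatty acids in radial glia, had 24221, 29672 and 27576, and GFAP, the glial intermediate filament, 6856, 5677 and 5896. The widest ratios were in SLC1A3 (ENSDARG00000043148), another glutamate transporter, with 4525, 9098 and 4629.7, and in GLUL (ENSDARG00000100003), with 12172, 8725 and 6669. The transporter was highest in WT replicate 2 and the glutamine synthetase copy in WT replicate 1. AQP4, the water channel that marks astrocyte endfeet in mammals, was close to the floor at 6.97, 0 and 1.06. The gene listed as CYP19A1 had 13.9, 12.06 and 15.9, and since zebrafish has a brain and an ovary aromatase, which of them this entry counts is uncertain.

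Oligodendrocyte genes were abundant and all 23 were detected, with sums of 451099, 358862 and 396784. Beyond mbpa, cd59a, which encodes a membrane inhibitor of complement, had 46692, 29640.1 and 38143. The order of the libraries was the same in both genes, with WT replicate 1 highest and WT replicate 2 lowest. Regulators of the lineage were lower: SOX10 averaged 2209.6 ± 276, OLIG2 1922 ± 214, MYRF 1093 ± 52.4 and olig1 469.9 ± 19.1 (SD, n = 3). The widest ratios were in cd9b, a tetraspanin, with 4388, 2618 and 2053, and in pllp, plasmolipin, with 34.8, 18.1 and 20.1.

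Microglia, vessels, meninges and ciliated cells contributed less, and none of their genes was within the first 100. The 28 microglial and macrophage genes summed to 34259, 31993 and 32252, led by cd74a, the chaperone of MHC class II, with 7803 ± 764, and apoeb, an apolipoprotein E, with 7250.2 ± 725 (SD, n = 3). Then came lgals3bp.1, a galectin-binding protein, with 4083, 4215 and 3238, and cd74b, with 3517, 2962 and 3604. The widest ratios were in MPEG1 (ENSDARG00000043093), a pore-forming protein of macrophages, with 68.7, 113 and 125, and marco, a scavenger receptor, with 478, 327 and 584. Defining microglial genes were detected at modest values, with csf1ra, the receptor for colony stimulating factor, at 276, 381 and 335, and P2RY12, a purinergic receptor, at 30.9, 35.2 and 54. Both were lowest in WT replicate 1.

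The 25 endothelial and pericyte genes summed to 20057, 22390.4 and 23563. NOTCH3, a receptor of mural cells and progenitors, had 4011, 4742 and 4266. The glucose transporter of the blood-brain barrier, SLC2A1 (ENSDARG00000001437), had 1908, 2199 and 2925, the efflux pump gene ABCB4 had 1726, 1483 and 1835, and kdrl, a VEGF receptor, had 1385, 1391 and 1499.8. WT replicate 1 was lowest in 16 of the 25 genes, against 37.9% of all genes with a mean of at least 10. The widest ratios were in SLC16A1 (ENSDARG00000016963), a monocarboxylate transporter, with 175, 78.4 and 108, and RGS5, a pericyte regulator of G proteins, with 729.8, 329.6 and 591. Among 12 connective tissue genes, SPARC, a matrix glycoprotein, had 5214, 3754 and 3991, and DCN, decorin, had 1764, 2539 and 1959. FN1 (ENSDARG00000006526), a fibronectin, averaged 1107 ± 176, and COL1A1, a fibrillar collagen, 822 ± 112 (SD, n = 3). The small proteoglycan LUM had 33.9, 22.1 and 40.2. Of 13 ependymal and ciliary genes, CLU, clusterin, which other glia also express, had 14185, 10558 and 11665. The ciliary master factor FOXJ1 had 444, 944 and 538, and was highest in WT replicate 2. CFAP45 and RSPH4A, parts of the axoneme, averaged 343 ± 108 and 316 ± 23.2, while dnah9, a dynein, had 9.96, 17.1 and 22.2. CLXN, a calcium-binding protein of cilia, had 25.9, 56.3 and 47.7.

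Peptide precursor genes spanned a wide range of values. The gene with the most reads was adcyap1b, which encodes PACAP, with 18484, 16059 and 16213, at rank 159 of all genes. Of the 35 hypothalamic and neuroendocrine genes, oxt, which encodes the oxytocin-family peptide of fish, led with 6549, 3889 and 6372. WT replicate 2 was the low library for oxt, and the values of adcyap1b lay close together. TRH, for thyrotropin-releasing hormone, had 2582, 2434 and 2330.2, SST, for somatostatin, 1610.0, 1301 and 1465, and CARTPT (ENSDARG00000045832), for a satiety-related CART peptide, 1620.0, 1316 and 1384. CRH, at the head of the stress axis, had 1082, 751 and 905. The vasopressin-family gene avp was lower, with 279.8, 287 and 340.0.

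Other precursors of feeding and arousal were at lower values. GAL, for galanin, had 733, 573 and 304, and pmchl, for a melanin-concentrating hormone, 302, 289 and 426. PMCH, of the same kind, had 197, 122 and 84.7. HCRT, for hypocretin, which a small cluster of hypothalamic neurons makes, had 19.9, 13.1 and 29.7, and agrp, for the agouti-related peptide of hunger neurons, 3.98, 10 and 2.12. The reproductive peptide genes kiss1 and kiss2 averaged 60.3 ± 7.55 and 32.9 ± 3.79 (SD, n = 3). The widest spread was in gnrh3, for a gonadotropin-releasing hormone, with 133, 24.1 and 25.4, where WT replicate 1 was high, and in RLN3, for a relaxin, with 43.8, 26.1 and 13.8. Of the 31 genes of this list with a mean of at least 10, 3 had a coefficient of variation of at least 50%. Over all genes at that level 4.97% did. All 3 had means below 100, where 25.6% (means of 10 to 30) and 7.87% (30 to 100) of all genes did. The summed level of the list was 17716, 13365 and 16275.

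Precursors that act in many brain regions came to 43166, 38426 and 40553 over 27 genes. After adcyap1b came cbln12, a cerebellin gene whose family organizes synapses, with 4958, 6468 and 5672, CBLN1, of the same family, with 3890.2, 3548 and 3956, and npb, for neuropeptide B, with 2464, 2304 and 2398. The opioid precursor genes penka and PENK averaged 2033 ± 119 and 1437 ± 156, and pdyn 906 ± 113 (SD, n = 3). NPY had 1868, 1625 and 1639, VIP 1224, 822 and 1197, tac1, which encodes substance P, 1152, 710.4 and 912, and CCK 771, 498 and 597. WT replicate 2 was lowest in 21 of the 25 members with a mean of at least 10, against 33.5% of all genes at that level. It was far below the others in vipb, another VIP gene, at 60.7, 1.0 and 118. It was also low for nppc, which encodes a C-type natriuretic peptide, with 247, 89.4 and 229.8, and for CALCB, which encodes a calcitonin gene-related peptide, with 573, 235 and 525.

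The machinery that cuts and stores peptides drew more reads than most precursors. Its median coefficient of variation was 8.06%, near the medians of 6.25% to 6.81% over all genes in the bands of means from 1000 upwards. In the hypothalamic and brain-wide lists, most of whose members had lower means, it was 23.0% and 18.0%. After CPE came scg2b, a granin, pcsk1nl, an inhibitor of a prohormone convertase, and PAM, the amidating enzyme, with means of 30371 ± 2025, 22892 ± 1808 and 13756 ± 1131 (SD, n = 3). PCSK1 and PCSK2, the convertases themselves, averaged 3100.5 ± 106 and 2998 ± 209. The widest ratios were in SCG5 (ENSDARG00000077045), a copy of a convertase chaperone gene, at only 15.9, 20.1 and 5.30, and in CPE.

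**Figure D2:**
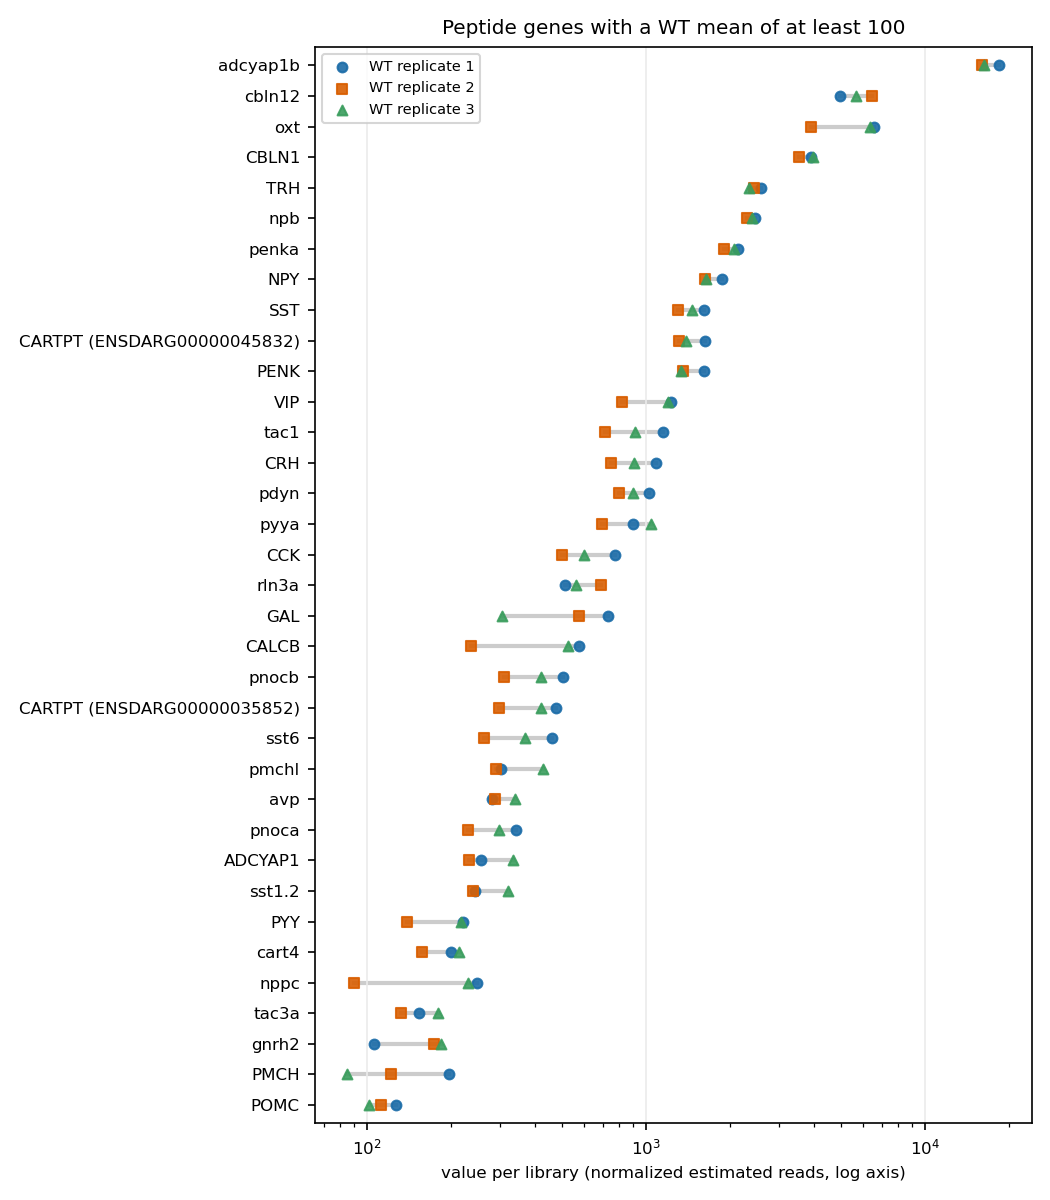
Values by library of the peptide genes of the hypothalamic and brain-wide lists with a WT mean of at least 100, on a log axis in normalized estimated reads; each symbol is 1 WT library. The order starts with adcyap1b (18484, 16059 and 16213) and ends with POMC (127, 112 and 102), and WT replicate 2 is the low library for oxt, CALCB and nppc.

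Genes of tissues that border the brain gave a check on what the samples held. The pituitary list summed to only 196, 199 and 171, with 4 of 9 genes at a mean of at least 10: growth hormone (gh1) had 0, 4.02 and 0, prolactin (prl) 11.9, 1.0 and 16.9 and CGA, the common subunit of glycoprotein hormones, 0, 16.1 and 3.18. The highest was POMC, with 127, 112 and 102, which the hypothalamus also transcribes, followed by pomcb with 26.9, 16.1 and 26.5. The luteinizing hormone subunit gene lhb had 3.98, 32.2 and 9.53, and the pituitary factor pitx1 15.9, 13.1 and 7.41. Defining hormone genes were thus near 0. Lens crystallins summed to 366, 352 and 269 over 11 genes, and CRYAB (ENSDARG00000101380), a small heat shock protein also made outside the lens, was the largest with 189.9, 155 and 111. Of the beta-crystallins, CRYBA1 had 47.8, 75.4 and 40.2, CRYBB3 54.8, 32.2 and 58.3, CRYBB2 16.9, 56.3 and 18 and CRYBA4 38.8, 19.1 and 28.6. Lens-specific CRYBB1 was near 0, with 5.97, 0 and 2.12, and so was the lens membrane protein gene MIP, with 0.996, 4.02 and 4.24.

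Blood and muscle genes differed between libraries. The erythroid list summed to 24508, 13298 and 15896, a ratio of 1.84. The globin gene HBE1 (ENSDARG00000089087) had 10293, 5428 and 4831, and hbaa1 had 5147, 2189 and 4985. The HBE1 copy was high in WT replicate 1, and hbaa1 was low in WT replicate 2. HBE1 (ENSDARG00000097238) had 2996, 1391 and 962 and HBE1 (ENSDARG00000069734) 600.4, 113 and 483. The red cell carbonic anhydrase cahz had 3192, 2742 and 2886, and hbaa2, another globin, 309, 73.4 and 259.5. Globin copies are close in sequence, so that reads may have been shared out among them. Of 11 erythroid genes with a mean of at least 10, 10 were highest in WT replicate 1, against 34.2% of all genes at that level. A coefficient of variation of at least 50% was reached by 3 of the 11, against 4.97% of all genes at that level.

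Skeletal muscle genes were low, with 2 of 16 at a mean of at least 100, and summed to 1320.3, 1328 and 2306. The largest, tpma, a tropomyosin, had 910.1, 763 and 950.1. The sarcomeric actin gene actc1b had 105, 194 and 488, the myosin light chain MYL11 (ENSDARG00000053254) 16.9, 45.2 and 180.1 and the muscle creatine kinase ckmb 20.9, 45.2 and 151. A fast-muscle parvalbumin, pvalb2, had 15.9, 8.04 and 114. In these 4, WT replicate 3 was far above the others, and it was alone high (at least 2-fold above each of the other libraries) in 7 of the 15 genes with a mean of at least 10, against 0.831% of all genes at that level. Some members ran the other way. Of the 15, 5 were lowest in WT replicate 3, a count near the 28.6% of all genes that were. Among these were MYL11 (ENSDARG00000002589), another light chain copy, with 50.8, 43.2 and 27.5, DES (ENSDARG00000005221), a desmin copy, with 40.8, 34.2 and 23.3, and myhz2, a myosin heavy chain, with 16.9, 10 and 7.41. Of the 15, 8 had a coefficient of variation of at least 50%, against 4.97% of all genes at that level. The share of all genes was 25.6% at means of 10 to 30 and 7.87% at 30 to 100. Without WT replicate 3, the number of muscle genes was 4. The part of muscle tissue in other results of that library was not tested.

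Photoreceptor and pineal genes formed the list that set WT replicate 2 apart upwards. The zebrafish pineal organ senses light directly and makes melatonin, and its photoreceptors share most of their phototransduction genes with the retina. The 36 genes summed to 15357, 43736 and 21976, a ratio of 2.85. The retinoid-binding protein gene rbp3 had 1489, 3932 and 1926, and the calcium sensor RCVRN (ENSDARG00000009637) 1224, 3247 and 1551. In both WT replicate 2 was highest and WT replicate 1 lowest.

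Enzymes of melatonin synthesis were among them. ASMT, the last enzyme of the pathway, had 827, 2517 and 1142. The values of aanat2, the pineal enzyme whose activity varies between day and night, were 329, 804 and 325. The cone arrestin gene ARR3 (ENSDARG00000056511) had 511, 2833 and 908, and crx, a factor that drives photoreceptor genes, 277, 647 and 319. Of the 32 members with a mean of at least 10, 31 were highest in WT replicate 2, against 34.8% of all genes at that level. It was alone high in 15, against 1.05%. The exception was asmt2, with 312, 238 and 215. In the median member WT replicate 2 was 2.28 times the mean of the other libraries, while over all genes the median ratio was close to 1. Of the 32, 19 had a coefficient of variation of at least 50%, against 4.97% of all genes at that level. When WT replicate 2 was left out 0 did (12 without WT replicate 1). The sum of the lens list, given above, was highest in WT replicate 1, but without the 2 CRYAB copies it was 175, 194 and 155, highest in WT replicate 2. Single beta-crystallins did not share 1 order. CRYBB2, with 16.9, 56.3 and 18.0, and CRYBA1 were highest in WT replicate 2. CRYBB3, with 54.8, 32.2 and 58.3, and CRYBA4, with 38.8, 19.1 and 28.6, were lowest there. The part of eye tissue in these values was not tested.

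**Figure D3:**
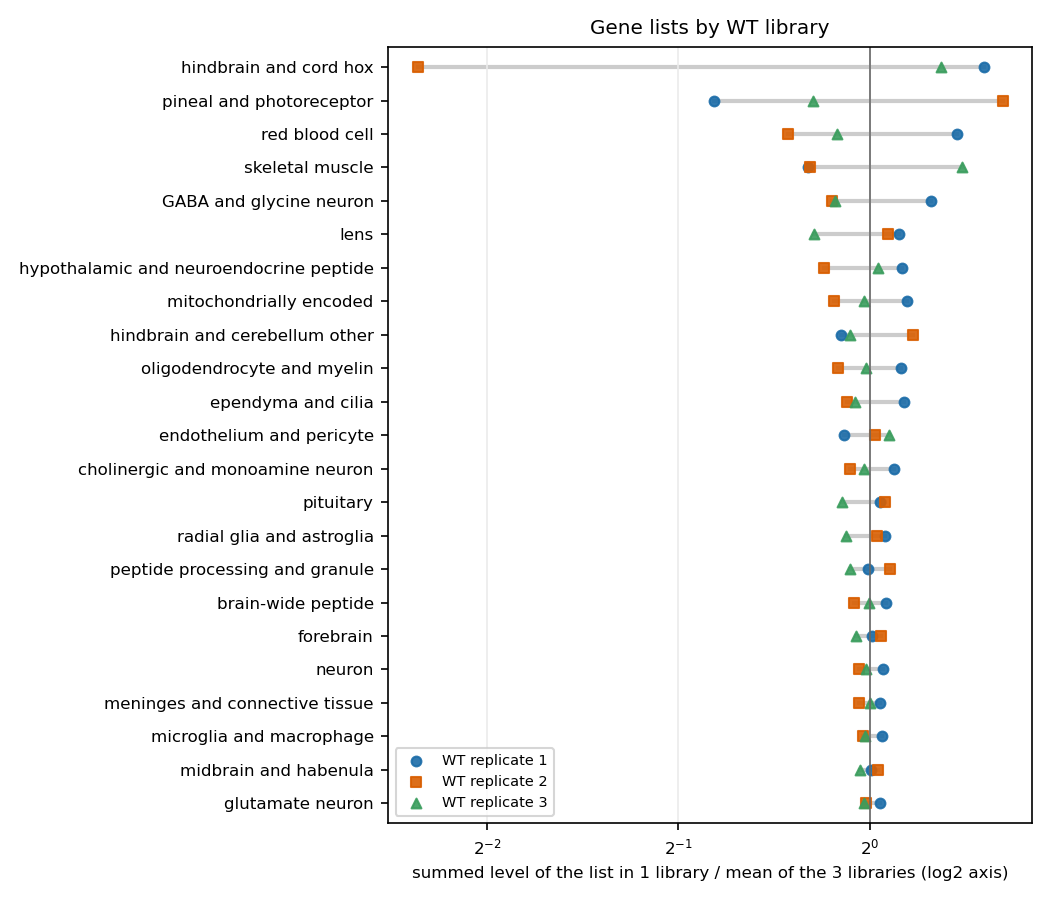
Summed level of each of 23 gene lists in a WT library divided by its mean over the 3 libraries, on a log2 axis, with lists ordered by the ratio of highest to lowest library. The hox list (ratio 7.79) and the pineal and photoreceptor list (2.85) spread furthest, both through WT replicate 2, and the glutamate neuron list (1.06) is the narrowest.

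The hox genes set WT replicate 2 apart downwards. Of 30 matched hox genes, 23 had a mean of at least 10, 7 were below it and 2 of these were listed at 0 throughout. They summed to 4596, 589.9 and 3922, so WT replicates 1 and 3 lay close together and WT replicate 2 was far below. The member with the highest mean, HOXB3, had 709, 236 and 637, and HOXA3 had 363, 44.2 and 310.3. HOXB5 (ENSDARG00000013057) had 807, 18.1 and 711 and its other copy HOXB5 (ENSDARG00000054030) 460.0, 13.1 and 468. WT replicate 2 was lowest in 22 of the 23 genes, against 33.5% of all genes at that level, and alone low (at least 2-fold below each of the others) in 20, against 1.38%. The exception to the order was HOXC13, with 16.9, 13.1 and 7.41. Of the 23, 18 had a coefficient of variation of at least 50%, against 4.97% of all genes at that level. Without WT replicate 2, 1 did.

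The shortfall was not the same along the cluster. Genes of paralog groups 1 to 3, whose expression reaches into the anterior hindbrain, summed to 1819, 466 and 1561, so that WT replicate 2 held 27.6% of the mean of the other libraries. Groups 4 and 5, of the posterior hindbrain and anterior cord, summed to 2142, 96.2 and 1917, or 4.74%. Groups 6 to 13, of the cord, summed to 635, 27.1 and 444, or 5.03%. HOXC13 held 13.1 of the 27.1 in WT replicate 2, and without it the sums were 618, 14.1 and 436, or 2.67%. Apart from HOXC13, the group 2 genes were the least reduced: hoxa2b had 49.8, 33.2 and 50.8, which put WT replicate 2 at 65.9% of the mean of the others, and HOXB2 had 160.3, 61.3 and 110.2, or 45.3%. Single genes and groups broke the order along the cluster. Group 1 as a whole held 12.5% in WT replicate 2, and its member hoxb1b had 50.8, 0 and 55.1. In group 3, hoxc3a had 86.6, 2.01 and 110.2, while HOXB3 alone held 236 of the 466 of groups 1 to 3. HOXD4, of group 4, kept 27.4% and hoxb8b, of group 8, kept 23.1%. Among other genes of groups 5 to 8, HOXC5 had 281, 8.04 and 234, hoxb6b 135, 3.01 and 86.9 and HOXB8 205, 1.0 and 137. In WT replicate 2, 8 of the 23 genes rested on 3 reads or fewer (values of 0 to 3.01), and no fold is given for them.

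**Figure D4:**
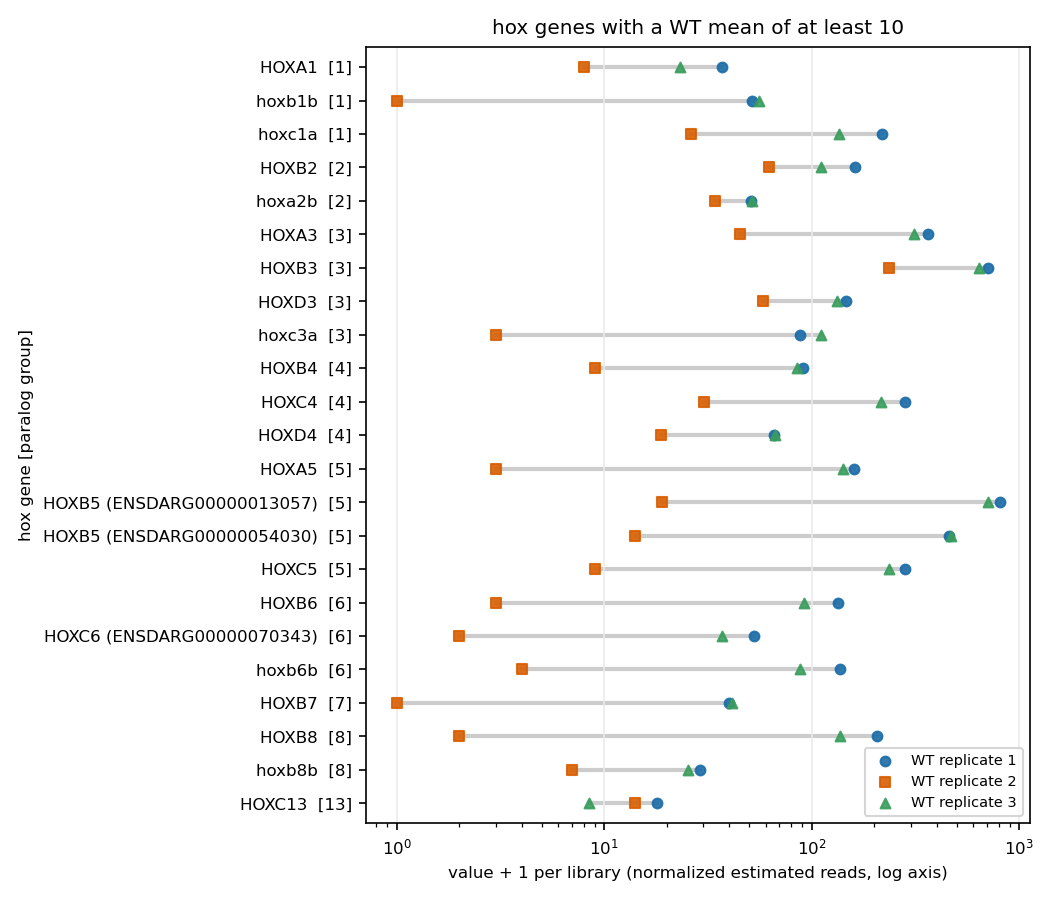
Values plus 1 of the 23 hox genes with a WT mean of at least 10, on a log axis in normalized estimated reads, ordered by paralog group from 1 at the top to 13 at the bottom; each symbol is 1 WT library. WT replicates 1 and 3 lie near each other, and WT replicate 2 lies to the left for every gene but HOXC13, least so for hoxa2b.

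Some genes outside the hox list, chosen after their values were seen, were also lowest in WT replicate 2. PHOX2A, a factor of cranial motor and visceral neurons, had 161, 67.3 and 165. As given above, CHAT, DBH, SLC6A5, CALCB and nppc showed the same order of low WT replicate 2. So did urp1, for a urotensin-related peptide, with 309.7, 10 and 203, PRPH, for the peripherin filament of motor neurons, with 411, 166 and 459.7, and myrfl, related to the myelin regulator MYRF, with 215, 5.02 and 239. Some genes of hindbrain monoamine neurons, though not DBH, ran the other way. SLC6A2, the noradrenaline transporter, had 722, 913 and 695, and TPH2 had 589, 880.3 and 675. FEV, a factor of serotonin neurons, had 27.9, 44.2 and 39.2. A cholinergic transporter copy, SLC18A3 (ENSDARG00000107527), had 142, 149.7 and 94.3. All 4 were highest in WT replicate 2. So was urp2, for another urotensin-related peptide, with 43.8, 314 and 199, against the order of urp1. The SLC18A3 copy with the higher mean (ENSDARG00000006356) was lowest in WT replicate 2, with 822, 388 and 620. SLC6A4, of the monoamine list, was even at 249, 244 and 249. WT replicate 2 was also lowest in oxt, of the hypothalamic list. It was lowest in 21 of the 25 brain-wide peptide genes with a mean of at least 10, CALCB and nppc among them. Of all genes at that level, 33.5% were lowest there. Whether the samples differed in their share of caudal tissue was not tested.

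Most of the cerebellar genes named here did not share that order. NEUROD1, a granule cell factor, had 15460.1, 27631 and 17651, ZIC1 12277, 16283 and 12882 and ZIC2 (ENSDARG00000015554) 11895, 16198 and 12884, zinc finger factors of granule cells and roof derivatives. ITPR1 (ENSDARG00000074149), the calcium release channel of Purkinje cells, had 5657, 6009 and 5098. All 4 were highest in WT replicate 2, and GABRA6 (ENSDARG00000058736), a granule cell GABA receptor subunit, was too, with 695, 1287 and 949. The 36 genes of the rest of the hindbrain and cerebellum summed to 87722, 113959 and 90818, and 19 of the 33 with a mean of at least 10 were highest in WT replicate 2, against 34.8% of all genes at that level. PTF1A, a progenitor factor of cerebellar inhibitory neurons, was at 8.96, 49.2 and 14.8. The segment genes of the developing hindbrain were steady in adult brain, with 237, 230.1 and 255 for EGR2, and 453, 463 and 417 for egr2a. Purkinje-related PCP4 (ENSDARG00000053130) was lowest in WT replicate 2, with 5842, 4884 and 5388, and CA8 was lowest in WT replicate 3, with 2299, 2159 and 1822.

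Forebrain and midbrain genes were steady as sums. The 31 forebrain genes summed to 34464, 35681 and 32498, led by bcl11ba, BHLHE22 and BCL11A, transcription factors of projection neurons, with means of 5327 ± 70.3, 4669 ± 475 and 3324 ± 188 (SD, n = 3). EOMES (ENSDARG00000006640), a T-box factor of the pallium, had 2819, 3609.5 and 2572. ISL1, of striatal and hypothalamic neurons, had 618, 620.0 and 614. Less steady members included the other EOMES copy (ENSDARG00000104243), with 329, 761 and 359, and EMX1, a pallial factor, with 76.7, 142 and 65.7. Both were highest in WT replicate 2, and so was NEUROD2, with 962, 1653 and 1219. DLX2 (ENSDARG00000017174), with 89.6, 55.3 and 55.1, and DLX6, with 274, 177 and 183, were highest in WT replicate 1. Midbrain and habenular genes summed to 26868, 27521 and 25858. TCF7L2, a Wnt effector high in thalamus and habenula, had 6855, 6507 and 6704. GATA3, of midbrain inhibitory neurons, averaged 2671 ± 151, POU4F2, of tectal and retinal projection neurons, 2067 ± 64.6, and OTX2, of forebrain and midbrain, 2001 ± 73.8 (SD, n = 3). The widest ratios in this list were only moderate, in otx2a with 98.6, 148 and 118 and kctd12.2, a habenular gene, with 1773, 2097 and 1406.

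Across the transcriptome the libraries were close. Over the 19605 genes with a mean of at least 10 the median coefficient of variation was 10.7%, with quartiles at 6.0% and 20%, and 975 genes (4.97%) reached 50%. Pearson correlations of log2(value + 1) over these genes were 0.969 between WT replicates 1 and 2, 0.975 between 1 and 3 and 0.978 between 2 and 3. They are across genes, which are not independent replicates. Differences of at least 2-fold were counted in 1261, 937 and 904 genes of these pairs.

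Spread depended on level. At means of 10 to 30 the median coefficient of variation was 33.0%, against 23.9% that counting of reads alone would give. At 300 to 1000 it was 8.55% against 4.33%, and at 10000 or more 6.81% against 0.794%. The observed spread levelled off from a mean of 1000 upwards, with band medians of 6.57%, 6.25% and 6.81%, while the counting error went on falling. Of the 14482 genes with a mean of at least 100, 190 (1.31%) reached 50%, and of the 5313 with a mean of at least 1000, 23 did. Genes named only by a clone or without a symbol made up 40.9% of the 975 variable genes, against 15.3% of all genes with a mean of at least 10. Of the 975, 551 had means of 10 to 30. The share of such names was not computed by band of mean, so a part of level in this difference was not tested.

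**Figure D5:**
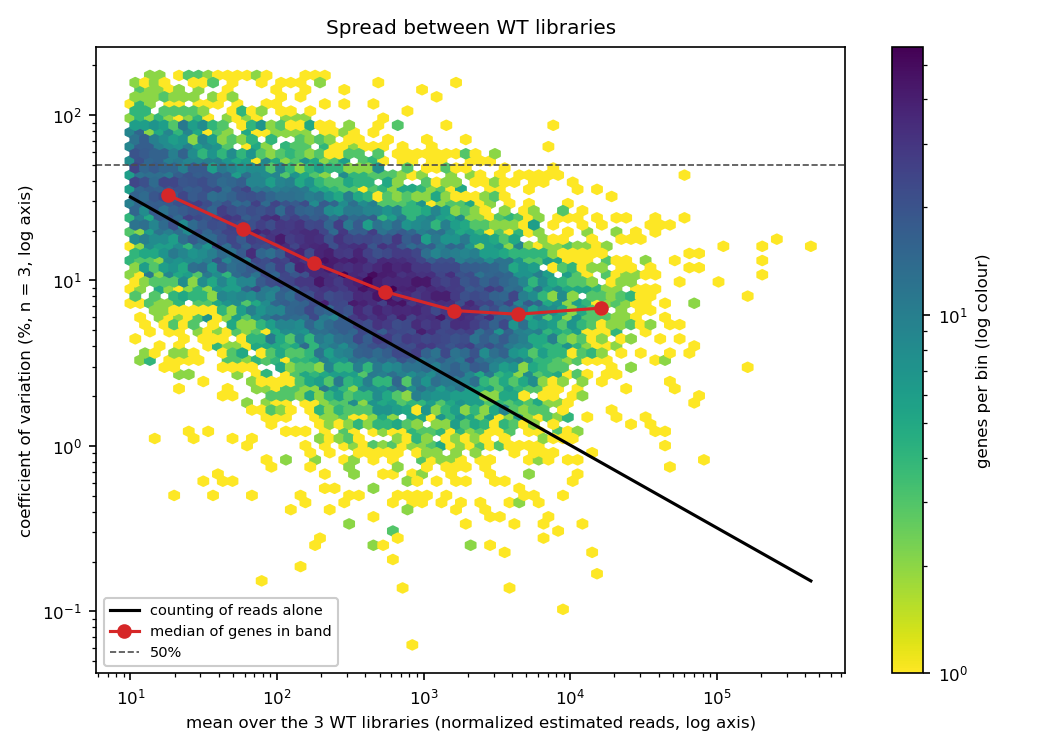
Coefficient of variation over the 3 WT libraries (%, log axis) against the WT mean (normalized estimated reads, log axis) for genes with a mean of at least 10. Colour gives the number of genes per bin and the red points band medians. The black line is the coefficient expected from counting of reads alone, which is not a median over n = 3. Band medians fall to 6.25% at means of 3000 to 10000 and 6.81% above, far over the counting line there.

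At a mean of at least 1000, the 10 steadiest genes included general and synaptic ones. The share of such functions among all genes at that level was not computed. GRIN1 (ENSDARG00000025728) had 9568, 9581 and 9588, a coefficient of variation of 0.106%. USP7, a deubiquitinase, had 3871, 3875 and 3864, and RPL3, a ribosomal protein, 14676, 14695 and 14646. Next were RAB11FIP4 (ENSDARG00000090170), an endosomal effector, nrxn1a, a presynaptic adhesion molecule, tle2a, a corepressor, and DSCAM (ENSDARG00000024865), a neuronal adhesion molecule. After them came PIP4K2C (ENSDARG00000031020), a phosphoinositide kinase, RPL36AL, a ribosomal protein, and hp1bp3, a heterochromatin protein. The 10 had coefficients of variation between 0.106% and 0.316%, below what counting of reads gives at their level, and they are the lowest of 5313 genes measured with 3 libraries.

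Among the most variable genes at that level, many were high in a single library. The class I MHC gene mhc1uba had 3.98, 4579 and 257, and ADAMTS8 (ENSDARG00000007709), a matrix protease, 165, 3098 and 396. ALDH1A2, which makes retinoic acid, had 1891, 5071 and 1964. WT replicate 2 alone was high in all 3. A gene named erv, for an endogenous retrovirus, had 1267, 13595 and 7381, the lowest in WT replicate 1. FKBP5, a cochaperone induced by glucocorticoids, had 2166, 3484 and 596, lowest in WT replicate 3, and PIGP, of GPI anchor synthesis, 1784, 457 and 1008. Also among the 10 were ARR3 and ASMT of the photoreceptor and pineal list and a globin gene, HBE1 (ENSDARG00000097238), given above.

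At a mean of at least 100, the 15 largest coefficients of variation lay between 116% and 168%. The 8 named only by clones included sc:d217 with 1.99, 8.04 and 538, si:dkey-19a16.7 with 1.99, 8.04 and 439.6 and si:ch211-209l18.4 with 1.99, 14.1 and 621. These 3 were high in WT replicate 3 and at 14.1 or less in the others. High in WT replicate 1 were si:ch211-266c8.1 with 1442, 38.2 and 65.7, si:ch211-233m11.1 with 306, 16.1 and 10.6 and si:ch73-389k6.1 with 388, 5.02 and 48.7. High in WT replicate 2 were si:dkey-27k4.4 with 23.9, 827 and 73.1 and si:ch211-129p6.2 with 16.9, 263 and 41.3. Of the named genes, the immunity-related GTPase gene irge4 had 429, 5.02 and 8.47, and irgq1 had 586, 8.04 and 16.9. LOXL2, a lysyl oxidase of matrix, had 2625, 185 and 142, and npffl, for an RF-amide peptide, 357, 69.3 and 20.1. All 4 were high in WT replicate 1 alone. A Wnt ligand, wnt4b, had 78.7, 714 and 122 and was high in WT replicate 2.

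Such on-and-off patterns were rare. At a value of at most 3 in 1 library and at least 100 in another there were 25 genes, of which 14 had a clone name or no symbol. Counted over all 19605 genes, WT replicate 1 was alone high in 0.857% and alone low in 1.82%, WT replicate 2 in 1.05% and 1.38%, and WT replicate 3 in 0.831% and 0.571%. MHC and immunity-related GTPase genes have close copies in the zebrafish genome, so their reads may have been shared out among copies.

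Zebrafish keep many genes as duplicates from a whole-genome duplication in the ancestor of teleosts. Here 2 genes were paired if only they shared a symbol, or if their symbols differed only in a final a or b. Whether each pair arose in that duplication was not determined. Of 81 such pairs among the listed genes, 71 had both copies at a mean of at least 10. In 68 of these the same copy was higher in all 3 libraries. The ratios are of deposited values, not per length, and copies may have shared reads. Their median was 3.72, and 17 pairs differed by at least 10-fold. By the ratio of means, the largest were in SCG5 (210.2), SLC4A4, a bicarbonate transporter (202), GAD1 (184), STMN1 (119.7) and RBFOX3, a neuronal splicing factor (119). The order changed with the library. SCG5 had ratios of 192, 134 and 556, and led through WT replicate 3, where its lower copy had few reads (15.9, 20.1 and 5.30 over the libraries). SLC4A4 had 278, 182 and 159 and was the largest of all pairs in WT replicate 1, while RBFOX3, with 103, 184 and 94.5, was the largest in WT replicate 2. For GAD1 the ratio was 262, 139.9 and 144 by library, since the lower copy, ENSDARG00000093411, was even at 352, 326 and 335. The smallest were in ckmb and ckma (1.02), SOX9, a glial factor (1.04), NEUROD6, of pallial neurons (1.12), PAX7, of dorsal midbrain (1.13) and GPM6B, a glial membrane protein (1.16). In 10 further pairs the lower copy was under a mean of 10. Among them was SLC1A2, where the lower copy (ENSDARG00000052138) had 6.97, 12.06 and 2.12 beside 66034 ± 2607 in the higher copy (SD, n = 3).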

How the data were processed

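Polyadenylated RNA of whole brains was measured in 3 WT libraries, and 3 rows of the matrix, from C246X fish, were not used. Per the submitters' processing notes, STAR and GRCz11 were used; no counter, annotation release or scaling step is named in the labels. The deposited signal values behaved as estimated read counts divided by a factor per library: up to 1000, 95.0% to 95.1% were whole multiples of a step (0.996, 1.005 and 1.06; tolerance 0.03), which puts the depth at 26659975, 25751103 and 24222340 reads. They were not the plain counts or per-length values that some planned comparisons assumed. No coding lengths were in the reference, so levels per length were not computed. Counting errors cover counting only.

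Symbols were found for 22274 genes. Of 562 list symbols 503 matched (23 by alias), 59 did not, and 1 was removed from a list because its symbol stood for 2 genes. The members and lists were chosen with earlier results of these data known. Mean, SD and coefficient of variation were computed per gene in Python 3.11.15 with pandas 2.3.3 and numpy 2.4.6; no test was run, since there was 1 group. The script was tested on simulated data. Named genes were the 25 with the highest mean, 4 highest and 2 widest members of each list, the 15 most variable at a mean of at least 100, the 10 most variable and 10 steadiest at 1000, and 5 pairs at each end of the duplicate ratios. A few genes that these rules name are not reported here. Other genes named were chosen after their values were seen, to account for defining markers. Alternatives were other scalings, minimum means, medians, log2 values with a pseudocount of 1, and leaving out each library. No sequences or coordinates are printed, since the reference held no sequences and no GRCz11 annotation.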

Additional observations from a re-analysis of the deposited data

How the results depend on the processing

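Under total-count, upper-quartile and median-of-ratios scaling all 25 most abundant genes stayed the same genes; 23 did when ranked by the median of the libraries, and 24 to 25 with a library left out. The share of the first 10 genes, 7.36%, ranged from 6.99% to 7.78% with a library left out. The summed levels of the 23 lists moved by at most 0.332% under the 3 scalings. With a library left out, 2 lists moved by at least 20%: the mean hox sum, 3036, was 2256 to 4259, and the photoreceptor and pineal sum, 27023, was 18666 to 32856, the values farthest from the mean being those without WT replicate 2. The others moved by up to 19.8%. The median coefficient of variation was 7.90% to 9.83% with a library left out, 12.7% with a minimum mean of 1 and 8.52% with a minimum of 100. Genes with a coefficient of at least 50% numbered 975, and 883 to 1146 with a library left out. There were 3032 of them at a minimum mean of 1 and 190 at a minimum of 100, where fewer genes were counted. Lists whose sums differed by at least 1.5-fold numbered 4 with all libraries and 2 to 3 with a library left out, 2 of them remaining without WT replicate 2. Duplicate pairs with a ratio of at least 10 numbered 17, and 17 to 18 with a library left out. The list counts without single libraries were chosen after seeing the data. For muscle there were 8 genes with all libraries and 4 without WT replicate 3. Without WT replicate 2 the hox count went from 18 to 1 and the photoreceptor count from 19 to 0. Genes counted with a library left out need not be among those counted with all libraries. Values per kilobase of coding length were not run. No paired analysis was possible because the results come from 1 group with no test between groups. Between values that are all under 10, counting error is large beside the differences given here. A fold that rests on a single value under 10 is imprecise for the same reason.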
